A study of Mus musculus with 15 samples.

Results

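The genes described here are 29 genes of cholesterol handling in mouse liver: 16 enzymes of cholesterol synthesis, 4 regulators of synthesis, 3 genes of uptake and intracellular transport, 3 exporters and 3 genes of cholesterol esterification. They were picked out by symbol, and all 29 were found among the 23420 genes of the deposited count tables and passed the filter on low counts. The members, and the other gene lists used below, were chosen with earlier results of these data known. Shares over all genes are therefore set beside them as description and are not a test of the lists. PolyA RNA was sequenced from the left lobe of the liver of C57Bl/6J males, an inbred mouse strain, with 5 libraries for each of 3 diets. MCD libraries came from mice on a diet with 31% fat that was deficient in methionine, choline and folate. HFD libraries came from mice on a diet with 31% fat, and BD libraries from mice on a base diet with 4% fat. All 15 libraries carried the same label for treatment, 5% Alkmauls El-620 in saline as a vehicle, and were collected 24 h later. The series as a whole asks about tetrachloroethylene in mice with fatty livers. The age of the mice, the time on the diets and a separate animal for each library were not given in the sources used here, so p-values measure only the spread of the samples, which may be technical.

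The libraries held 3704642 to 23131089 gene counts (median 10312311). HFD replicate 2 stood apart: on the first principal component of all tested genes it lay at 28.4, among the MCD libraries (15.6 to 39.4) and away from the other HFD libraries (-12.7 to -0.415). The sample numbers in the BD titles lie at least 66 above those of the other diets, so a batch or day tied to that numbering and the BD diet cannot be told apart. The 7 hepatocyte markers summed to 109816 to 153163 CPM in MCD, 105541 to 129176 CPM in HFD and 120753 to 139097 CPM in BD, most of it from Alb (106409 CPM in MCD, 95858 CPM in HFD and 105728 CPM in BD on average). Their score was the mean of log2 CPM minus the BD mean, with equal weight for each gene. It was -0.608 to -0.257 in MCD, -0.592 to -0.202 in HFD and -0.0187 to 0.0366 in BD. Every MCD and every HFD library lay below every BD library. Cps1 differed most of the 7 markers, at 1929 CPM in MCD, 2522 CPM in HFD and 5705 CPM in BD on average. Exons of 6 members share bases with another counted gene: Fdft1 with Ctsb, Lss with 4930483K19Rik, Cyp51 with Akap9 and Abcg5 with Abcg8 on opposite strands, and Tm7sf2 with Vps51 on the same strand. The shared bases make up 2.19% to 18.3% of the exonic bases of these members, and reads there are uncertain because the strand setting and counting mode were not given in the sources used here. Gene positions are those of GENCODE M21 on GRCm38. The RNA came from whole tissue, in which fewer cells of a type and less RNA per cell cannot be told apart.

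Liver cells make cholesterol from acetyl-CoA through mevalonate, squalene and lanosterol, and the enzymes of this path are switched on together by the transcription factor SREBP2, the product of Srebf2. When sterols are abundant, the INSIG proteins hold SREBP2 and its escort SCAP in the endoplasmic reticulum, and transcription of the path falls. Excess sterols also activate the LXR receptors, which raise export through ABCA1 and through the pair ABCG5 and ABCG8, and raise MYLIP, a ubiquitin ligase that sends lipoprotein receptors to degradation. Cholesterol that is stored is first esterified by SOAT enzymes, while LCAT, which liver secretes, esterifies cholesterol on plasma lipoproteins.

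Promoter windows were looked up for the members because SREBP2 works at promoters beside other factors, among them NFY, which binds CCAAT, and SP1, which binds GC boxes. RefSeq start sites (GRCm38.p6) gave 30 windows of 300 bases for 23 of the 29 members. Each ran from 250 bases before to 50 bases after a start. No window was found for Fdps, Fdft1, Sqle, Scarb1, Stard4 and Soat2. The letters CCAAT, read on both strands, were in the windows of 12 of 13 synthesis genes with a window (92.3%), against 41.1% of all 27025 genes with a window and 43.0% of the 9118 tested ones. Counted per window, CCAAT was in 75.0% of the synthesis windows, against 37.4% of all windows. The GC box GGGCGG, also on both strands, was in 12 of these 13 genes (92.3%), against 38.2% of all genes and 67.6% of the tested ones. The sterol element, searched as the letters TCACNCCAC on either strand, was found in 1 of the 23 members with a window. This was Hmgcs1, with TCACCCCAC and its first base 137 bases before the start. Of all genes 1.44% had these letters. The LXR element was searched on either strand as 2 copies of AGGTCA in one direction with 4 bases between them. It was in none of the 23 members with a window and in 4 of all 27025 genes (0.0148%). Only exact letters were searched for the sterol and LXR elements, so other forms of them may be present in the windows. Matches of different motifs can share letters at their ends. Abcg5 and Abcg8 start 110 bases apart on opposite strands of chromosome 17, so windows of the pair share bases. A match describes the letters of a window and does not show that a factor binds there. The windows of 5 members are printed from RefSeq 5′ to 3′ along the gene: Hmgcs1 for the sterol element, then the 4 genes whose difference between MCD and BD stood under every alternative setting (Pmvk, with the first of its 2 windows, Tm7sf2, Ebp and Soat1). Capitals mark CCAAT or its reverse complement ATTGG and, in Hmgcs1, the sterol element.
Hmgcs1, chr13:119690101-119690400, plus strand: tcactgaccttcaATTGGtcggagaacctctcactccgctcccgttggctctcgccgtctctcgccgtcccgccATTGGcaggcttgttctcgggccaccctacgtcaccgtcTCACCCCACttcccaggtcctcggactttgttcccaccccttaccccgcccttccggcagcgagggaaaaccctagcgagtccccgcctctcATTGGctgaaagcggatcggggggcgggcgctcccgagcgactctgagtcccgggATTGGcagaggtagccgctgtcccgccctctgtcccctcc
Pmvk, chr3:89454291-89454590, plus strand: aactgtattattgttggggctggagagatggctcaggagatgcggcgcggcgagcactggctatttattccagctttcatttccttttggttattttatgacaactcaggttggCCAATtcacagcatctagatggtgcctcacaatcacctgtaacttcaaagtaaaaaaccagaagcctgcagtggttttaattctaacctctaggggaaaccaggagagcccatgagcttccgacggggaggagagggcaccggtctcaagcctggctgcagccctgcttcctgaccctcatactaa
Tm7sf2, chr19:6067801-6068100, minus strand: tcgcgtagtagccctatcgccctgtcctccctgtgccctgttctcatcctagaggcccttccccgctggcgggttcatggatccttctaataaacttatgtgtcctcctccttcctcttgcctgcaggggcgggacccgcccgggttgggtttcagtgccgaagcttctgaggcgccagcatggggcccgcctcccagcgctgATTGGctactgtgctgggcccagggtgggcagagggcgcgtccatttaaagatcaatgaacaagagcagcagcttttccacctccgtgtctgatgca
Ebp, chrX:8193463-8193762, minus strand: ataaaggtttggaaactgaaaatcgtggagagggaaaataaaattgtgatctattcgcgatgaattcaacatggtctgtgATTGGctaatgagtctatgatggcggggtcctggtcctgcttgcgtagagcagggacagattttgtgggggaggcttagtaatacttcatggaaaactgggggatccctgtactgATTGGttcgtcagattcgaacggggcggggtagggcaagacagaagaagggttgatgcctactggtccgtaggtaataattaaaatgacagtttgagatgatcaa
Soat1, chr1:156474279-156474578, minus strand: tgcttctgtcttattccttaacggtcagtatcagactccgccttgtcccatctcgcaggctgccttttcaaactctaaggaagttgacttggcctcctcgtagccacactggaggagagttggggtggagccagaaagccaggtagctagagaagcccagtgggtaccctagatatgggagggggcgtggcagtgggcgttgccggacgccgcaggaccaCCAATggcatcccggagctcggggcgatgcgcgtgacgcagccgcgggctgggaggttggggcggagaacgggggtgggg

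In MCD livers against BD livers 6 of the 16 cholesterol synthesis enzymes fell, and the storage enzyme Soat1 rose. Levels are given in CPM, each gene's share of the counts of a library after scaling with edgeR's TMM factors. Fold changes are on the log2 scale, and a gene is called where its adjusted p is under 0.05. By edgeR's quasi-likelihood test with Benjamini-Hochberg adjustment over all 12193 tested genes, 8 of the 29 members fell (Mvk, Pmvk, Cyp51, Tm7sf2, Ebp, Dhcr7, Insig1 and Scap) and 2 rose (Mylip and Soat1). Of all genes tested, 21.4% were called, 12.8% higher and 8.64% lower. Among the 16 synthesis enzymes 6 fell and none rose, all 16 log2 fold changes were below 0, and their median was -0.44, against -0.025 over all genes tested, of which 46.6% were above 0. The 16 were grouped with results of these data known, so the contrast with all genes describes them and is not a test. The 6 genes of uptake and efflux had 1 call, Mylip, and a median of 0.065. Calls were repeated under 23 alternatives: other scalings, tools and filters, fewer samples in the fit, the rate of non-unique alignments in the model, and each library left out in turn. The number of members called moved by over 1.5 times without MCD replicate 1, 4 or 5 (6, 4 and 6), without BD replicate 1, 3 or 4 (6, 6 and 5) and without TMM factors (6). Without TMM factors, which moved the median of all genes by 0.14 on the log2 scale, 3 members were lower and 3 higher, and higher genes made up 81.8% of all calls, against 59.7% with them.

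**Figure D1:**
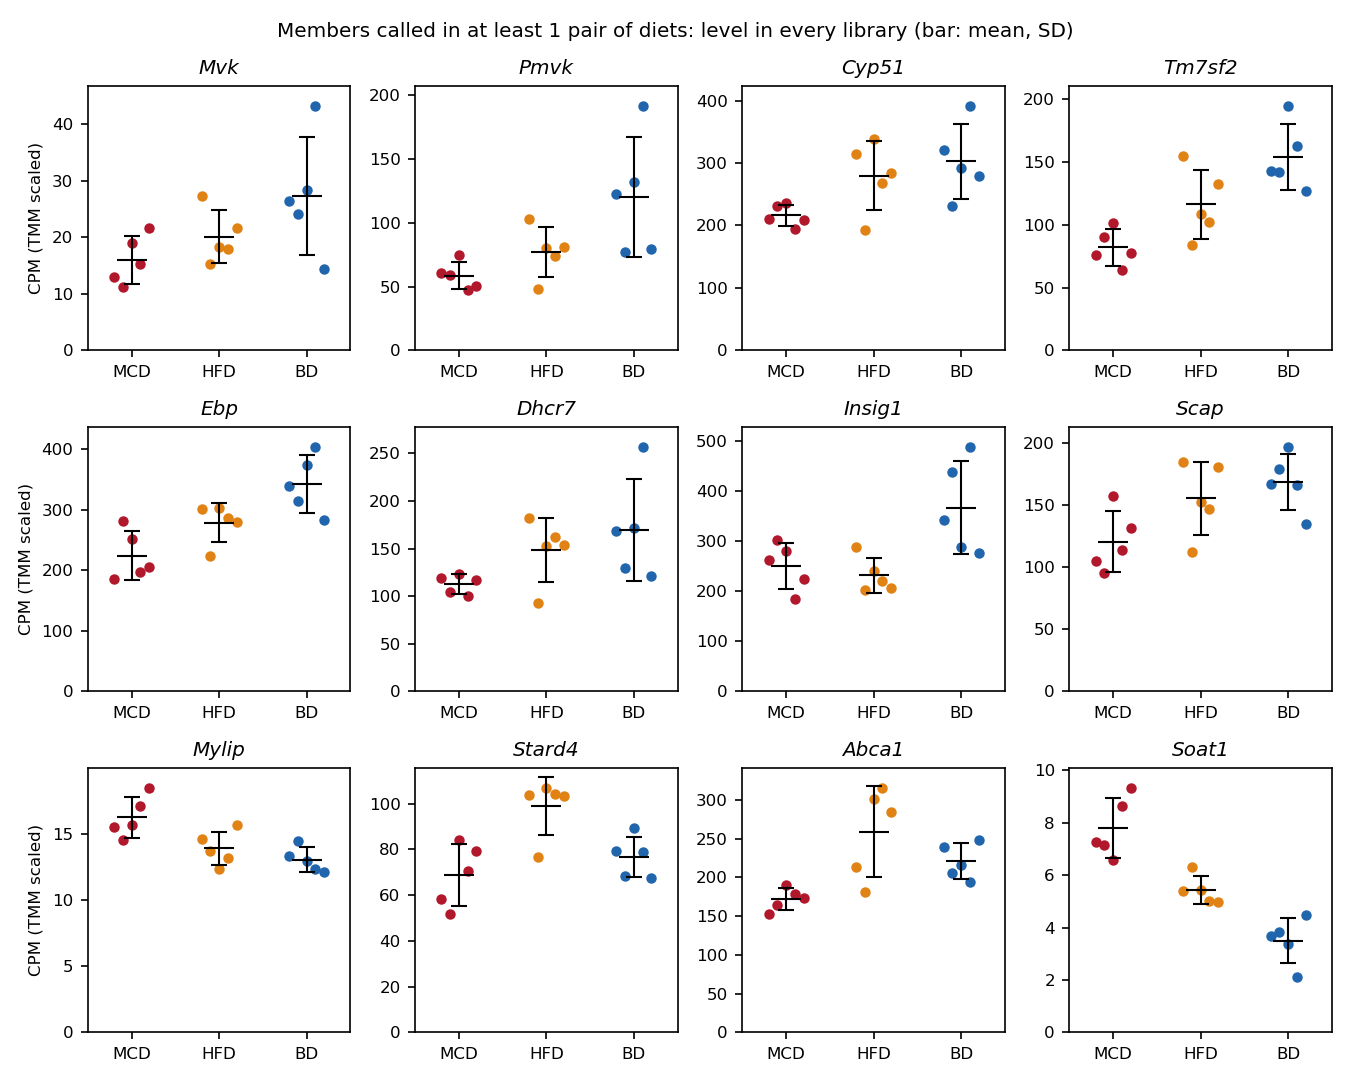
Level of the 12 members called in at least 1 pair of diets, in CPM scaled with TMM factors (vertical axis, linear, from 0), for MCD, HFD and BD (horizontal axis); points are libraries in order of replicate number, and bars give mean and SD of 5 libraries. Pmvk, Tm7sf2, Ebp, Mylip, Abca1 and Soat1 have no overlap between MCD and BD, and Soat1 has none between any pair of diets.

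The early steps, up to lanosterol, held 10 of the enzymes, and 2 of them fell in MCD against BD. Pmvk was at 60.8, 58.9, 74.6, 47.2 and 50.6 CPM in MCD replicates 1 to 5. Pmvk levels were 103, 48.1, 80.5, 73.8 and 81.2 CPM in HFD replicates 1 to 5 and 122, 76.9, 132, 192 and 79.1 CPM in BD replicates 1 to 5. Every MCD library lay below every BD library, while HFD replicates 2 and 4 lay inside the MCD range. Pmvk, which makes mevalonate diphosphate (chromosome 3, 89454541 to 89469013, plus strand), fell in MCD (log2 fold change of -1.04 with SE 0.24, adjusted p = 0.00662), and the call held under all 23 alternatives. Mvk was at 13.05, 11.3, 19.1, 15.3 and 21.6 CPM in MCD replicates 1 to 5. Mvk levels were 27.4, 15.4, 18.2, 17.9 and 21.7 CPM in HFD replicates 1 to 5 and 26.4, 24.1, 28.4, 43.3 and 14.5 CPM in BD replicates 1 to 5. BD replicate 4 was the highest of all 15 libraries, and BD replicate 5 lay below 3 of the MCD libraries. Mvk, mevalonate kinase (chromosome 5, 114444269 to 114460591, plus strand), fell in MCD (log2 fold change of -0.75 with SE 0.25, adjusted p = 0.0397). That call ended without MCD replicate 1, 2 or 4 (adjusted p = 0.105, 0.0925 and 0.0844), without HFD replicate 2 or 3 (0.0501 and 0.0603), without BD replicate 1, 2, 3 or 4 (0.0745, 0.0533, 0.0778 and 0.120), without TMM factors (0.0969), by limma-voom (0.0755), without a filter on low counts (0.0792) and with only both diets compared in the fit (0.0737).

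The other 8 early enzymes were not called in MCD against BD, and Lss was the only one of them called under any alternative. Acat2, which joins acetyl-CoA units and has a near-identical neighbour, Acat3, with which its reads may be split, averaged 56.05 ± 20.2 CPM in MCD, 64.6 ± 10.1 CPM in HFD and 70.6 ± 24.0 CPM in BD (SD, n = 5 each). Hmgcs1, the cytosolic synthase before mevalonate, averaged 571 ± 72.3 CPM in MCD, 706 ± 168 CPM in HFD and 755 ± 311 CPM in BD (SD, n = 5 each), with a log2 fold change in MCD of -0.40 (95% interval -0.88 to 0.077, adjusted p = 0.228). Its highest library was BD replicate 4. Mvd, the decarboxylase that yields isopentenyl diphosphate, averaged 26.3 ± 6.47 CPM in MCD, 35.1 ± 14.8 CPM in HFD and 35.4 ± 19.5 CPM in BD (SD, n = 5 each), the widest spread of the 16 enzymes relative to the mean in HFD and in BD. Idi1, the isomerase that follows, averaged 4.33 ± 1.06 CPM in MCD, 4.498 ± 1.47 CPM in HFD and 6.05 ± 1.76 CPM in BD (SD, n = 5 each). Fdps, which builds farnesyl diphosphate, averaged 109 ± 18.2 CPM in MCD, 155 ± 51.9 CPM in HFD and 133 ± 53.4 CPM in BD (SD, n = 5 each). Fdft1, squalene synthase, averaged 85.1 ± 6.50 CPM in MCD, 98.3 ± 21.1 CPM in HFD and 114 ± 42.2 CPM in BD (SD, n = 5 each), with an adjusted p of 0.149. Sqle, squalene epoxidase, averaged 99.9 ± 15.3 CPM in MCD, 154 ± 42.2 CPM in HFD and 121 ± 38.4 CPM in BD (SD, n = 5 each). Lss, which closes the rings to lanosterol, averaged 64.7 ± 10.6 CPM in MCD, 88.6 ± 23.3 CPM in HFD and 97.5 ± 38.4 CPM in BD (SD, n = 5 each). Its log2 fold change was -0.59 (95% interval -1.10 to -0.076, adjusted p = 0.0976), and it was called without BD replicate 5 (adjusted p = 0.0497), by DESeq2 (0.0498) and without HFD replicate 2 and MCD replicate 3 together (0.0428). The adjusted p-values of Acat2, Mvd, Idi1, Fdps and Sqle were 0.377, 0.436, 0.172, 0.481 and 0.393 in that order.

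After lanosterol 4 of 6 enzymes fell in MCD against BD. Cyp51 was at 211, 230.5, 237, 194 and 209 CPM in MCD replicates 1 to 5. Cyp51 levels were 315, 193, 338, 268 and 284 CPM in HFD replicates 1 to 5 and 320.3, 230.4, 292, 392 and 279 CPM in BD replicates 1 to 5. MCD replicates 2 and 3 reached above BD replicate 2, and the other MCD libraries lay below every BD library. Cyp51, the demethylase of lanosterol (chromosome 5, 4081145 to 4104746, minus strand), fell in MCD (log2 fold change of -0.48 with SE 0.14, adjusted p = 0.0195). The call ended without MCD replicate 4 or 5 (adjusted p = 0.0560 and 0.0509), without BD replicate 1 or 4 (0.0579 and 0.0693), without TMM factors (0.0746) and with non-unique alignments in the model (0.0782). Tm7sf2 was at 76.3, 90.1, 102, 64.0 and 78.0 CPM in MCD replicates 1 to 5. Tm7sf2 levels were 155, 83.8, 108, 102 and 133 CPM in HFD replicates 1 to 5 and 143, 142, 195, 163 and 127.2 CPM in BD replicates 1 to 5. MCD and BD did not overlap, and the HFD libraries reached into both ranges. Tm7sf2, the sterol reductase that follows Cyp51 (chromosome 19, 6062821 to 6068373, minus strand), fell in MCD (log2 fold change of -0.91 with SE 0.16, adjusted p = 5.99e-04), under all 23 alternatives as well. Ebp was at 186, 281, 251, 197 and 205 CPM in MCD replicates 1 to 5. Ebp levels were 301, 224, 303, 286 and 281 CPM in HFD replicates 1 to 5 and 339, 314, 374, 404 and 283 CPM in BD replicates 1 to 5. The highest MCD library, replicate 2, stayed just below the lowest BD library, replicate 5, and HFD replicate 2 lay well inside the MCD range. Ebp, a sterol isomerase (chromosome X, 8185329 to 8193512, minus strand), fell in MCD (log2 fold change of -0.61 with SE 0.13, adjusted p = 0.00184), and this call too held under all 23 alternatives.

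Dhcr7 was at 119.6, 104, 123, 100.2 and 117 CPM in MCD replicates 1 to 5. Dhcr7 levels were 182, 92.5, 153, 162 and 153 CPM in HFD replicates 1 to 5 and 169, 130.1, 172, 257 and 122 CPM in BD replicates 1 to 5. BD replicate 5 fell inside the narrow MCD range, and BD replicate 4 was far above the other BD libraries. Dhcr7, the reductase that ends the path in cholesterol (chromosome 7, 143823145 to 143848410, plus strand), fell in MCD (log2 fold change of -0.59 with SE 0.19, adjusted p = 0.0350). This call ended without MCD replicate 1, 2, 3, 4 or 5 (adjusted p = 0.0624, 0.0763, 0.0527, 0.0884 and 0.0680), without HFD replicate 3 (0.0558), without BD replicate 1, 3 or 4 (0.0719, 0.0640 and 0.103), without TMM factors (0.105), by limma-voom (0.0522), without a filter on low counts (0.0653) and with non-unique alignments in the model (0.0729). Nsdhl, a dehydrogenase of the demethylation steps, averaged 121 ± 13.7 CPM in MCD, 146 ± 20.1 CPM in HFD and 159 ± 39.4 CPM in BD (SD, n = 5 each). Its log2 fold change was -0.38 (95% interval -0.68 to -0.089, adjusted p = 0.0601), and it was called without BD replicate 2 (adjusted p = 0.0233). Hsd17b7, the ketoreductase of the same steps, averaged 92.2 ± 17.2 CPM in MCD, 139.8 ± 29.9 CPM in HFD and 114 ± 27.1 CPM in BD (SD, n = 5 each), with an adjusted p of 0.250.

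Of the 4 regulators, Insig1 and Scap fell in MCD against BD. Insig1 was at 262, 301, 279.7, 185 and 225 CPM in MCD replicates 1 to 5. Insig1 levels were 289, 202, 240.3, 219 and 206 CPM in HFD replicates 1 to 5 and 342, 437, 288, 488 and 277 CPM in BD replicates 1 to 5. Replicates 3 and 5 of BD lay below MCD replicate 2, and the 3 other BD libraries were above all MCD and HFD libraries. Insig1, a sterol-sensing retention protein that is itself a target of SREBP2 (chromosome 5, 28071363 to 28078662, plus strand), fell in MCD (log2 fold change of -0.55 with SE 0.16, adjusted p = 0.0233). The call for Insig1 ended without MCD replicate 4 or 5 (adjusted p = 0.0673 and 0.0697), without BD replicate 2 or 4 (0.0626 and 0.0745), without TMM factors (0.0790) and with only both diets compared in the fit (0.0510). Scap was at 105, 95.2, 157, 114 and 132 CPM in MCD replicates 1 to 5. Scap levels were 185, 113, 153, 147 and 181 CPM in HFD replicates 1 to 5 and 167, 179, 197, 166 and 135 CPM in BD replicates 1 to 5. MCD replicate 3 lay above BD replicate 5, the only BD library within the MCD range. Scap, the escort of SREBP2 (chromosome 9, 110333288 to 110384950, plus strand), fell in MCD (log2 fold change of -0.49 with SE 0.15, adjusted p = 0.0241). The call for Scap ended without MCD replicate 1, 2 or 4 (adjusted p = 0.0727, 0.0596 and 0.0601), without BD replicate 1, 2 or 3 (0.0572, 0.0522 and 0.0681), without TMM factors (0.111) and with non-unique alignments in the model (0.0580). Insig2, the second retention protein, averaged 318 ± 60.5 CPM in MCD, 346 ± 76.7 CPM in HFD and 323 ± 43.3 CPM in BD (SD, n = 5 each), with a log2 fold change of -0.026 (95% interval -0.35 to 0.30, adjusted p = 0.929). Srebf2, the gene of SREBP2, averaged 61.6 ± 20.6 CPM in MCD, 66.1 ± 8.25 CPM in HFD and 77.0 ± 18.3 CPM in BD (SD, n = 5 each). Its log2 fold change was -0.32 (95% interval -0.77 to 0.13, adjusted p = 0.308), and it was called with non-unique alignments in the model (adjusted p = 0.0424).

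On the side of uptake and transport, Mylip rose in MCD against BD. Mylip was at 15.5, 14.5, 15.6, 17.1 and 18.5 CPM in MCD replicates 1 to 5. Mylip levels were 14.6, 13.7, 12.3, 13.2 and 15.6 CPM in HFD replicates 1 to 5 and 13.3, 14.4, 12.9, 12.4 and 12.1 CPM in BD replicates 1 to 5. All MCD libraries were above all BD libraries, with MCD replicate 2 and BD replicate 2 nearest to each other. Mylip (chromosome 13, 45389742 to 45412022, plus strand) rose in MCD (log2 fold change of 0.32 with SE 0.10, adjusted p = 0.0352). This call ended without MCD replicate 1, 4 or 5 (adjusted p = 0.0504, 0.0776 and 0.0694), without BD replicate 3, 4 or 5 (0.0710, 0.0704 and 0.0717), without a filter on low counts (0.0528) and with non-unique alignments in the model (0.158). Scarb1, the receptor for high density lipoprotein, averaged 182 ± 39.0 CPM in MCD, 187 ± 19.98 CPM in HFD and 183 ± 8.24 CPM in BD (SD, n = 5 each), with a log2 fold change of -0.0046 (95% interval -0.26 to 0.25, adjusted p = 0.986), whose sign turned under 13 of the 23 alternatives. Stard4, a carrier that moves sterols between membranes and a known SREBP2 target, had a log2 fold change of -0.15 (95% interval -0.43 to 0.12, adjusted p = 0.439).

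None of the 3 exporters was called in MCD against BD by edgeR, DESeq2 or limma-voom, and 2 had an unadjusted p under 0.05 by each tool. In edgeR these 2 went in opposite directions, Abcg5 higher and Abca1 lower. At that threshold 17.8% of all genes tested were higher and 15.6% lower. Abca1 was at 153, 164, 190.2, 178 and 174 CPM in MCD replicates 1 to 5. Abca1 levels were 213, 181, 302, 316 and 284 CPM in HFD replicates 1 to 5 and 239.7, 206, 216, 194 and 249 CPM in BD replicates 1 to 5. MCD and BD did not overlap, and HFD replicates 3 to 5 lay above every other library. Abca1, which loads cholesterol onto lipid-poor apolipoprotein A-I (chromosome 4, 53030787 to 53159895, minus strand), had in MCD a log2 fold change of -0.36 (95% interval -0.64 to -0.085, adjusted p = 0.0582). It was called without HFD replicate 2 (adjusted p = 0.0265), with only both diets compared in the fit (0.0227) and without HFD replicate 2 and MCD replicate 3 together (0.0192). Members without overlap between MCD and BD numbered 6 of 29, against 15.4% of all genes tested. Abcg5, one partner of the exporter of sterols to bile, averaged 81.2 ± 11.3 CPM in MCD, 89.0 ± 19.0 CPM in HFD and 66.2 ± 5.83 CPM in BD (SD, n = 5 each). Its log2 fold change in MCD was 0.29 (95% interval 0.014 to 0.57, adjusted p = 0.129), and it was called without HFD replicate 3 (adjusted p = 0.0483) and without TMM factors (0.0329). Abcg8, its partner, averaged 112 ± 29.4 CPM in MCD, 128.2 ± 17.6 CPM in HFD and 102 ± 16.6 CPM in BD (SD, n = 5 each), with an adjusted p of 0.598.

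Soat1 was the member with the smallest adjusted p in MCD against BD. Soat1 was at 7.27, 7.16, 6.59, 8.62 and 9.33 CPM in MCD replicates 1 to 5. Soat1 levels were 5.39, 6.32, 5.45, 5.02 and 4.99 CPM in HFD replicates 1 to 5 and 3.69, 3.81, 3.36, 2.13 and 4.48 CPM in BD replicates 1 to 5. The 3 diets did not overlap: every MCD library was above every HFD library, and every HFD library above every BD library. Soat1, an esterification enzyme of macrophages and many other cells (chromosome 1, 156424525 to 156474331, minus strand), rose 2.17-fold in MCD (log2 fold change of 1.12 with SE 0.17, adjusted p = 1.89e-04), under all 23 alternatives. Macrophage markers moved with it: 12 of 12 rose in MCD against BD, 5 of 12 in HFD against BD and 2 of 12 in MCD against HFD. Their summed levels were 755 to 957 CPM in MCD, 538 to 785 CPM in HFD and 365 to 603 CPM in BD. None of the markers was at 0 in all 5 libraries of a diet. Gpnmb (0.186 CPM in BD on average, lowest library at 0) and Trem2 (0.576 CPM in BD) lay near the floor in BD. Of 8 stellate cell markers 7 rose in MCD against BD, 0 in HFD against BD and 4 in MCD against HFD. Their summed levels were 532 to 931 CPM in MCD, 375 to 534 CPM in HFD and 296 to 393 CPM in BD. Of all genes tested, 12.8%, 3.65% and 2.22% were called higher in the 3 pairs in that order. The part of macrophages and stellate cells in the level of Soat1 was not tested. Soat2, the SOAT enzyme of mouse hepatocytes, averaged 58.4 ± 4.15 CPM in MCD, 52.2 ± 6.59 CPM in HFD and 54.8 ± 9.46 CPM in BD (SD, n = 5 each), with a log2 fold change in MCD of 0.096 (95% interval -0.16 to 0.35, adjusted p = 0.617). Lcat averaged 345 ± 54.2 CPM in MCD, 417 ± 36.9 CPM in HFD and 424 ± 46.9 CPM in BD (SD, n = 5 each). Its log2 fold change was -0.30 (95% interval -0.54 to -0.060, adjusted p = 0.0694), and it was called without BD replicate 5 (adjusted p = 0.0249) and with non-unique alignments in the model (0.0220). Of the 7 hepatocyte markers 2 fell in MCD against BD, Cps1 (log2 fold change -1.56) and Hnf4a (-0.37), and 1 fell in HFD against BD, Cps1 (-1.18). Of all genes tested, 8.64% and 3.27% fell in these pairs in that order. In MCD against BD, 2 of the 7 markers were above 0. The median of the 7 markers was -0.31 in MCD and -0.17 in HFD, each against BD. Their score averaged -0.434 ± 0.140 in MCD, -0.315 ± 0.160 in HFD and 0 ± 0.0220 in BD (SD, n = 5 each). The score of the 16 synthesis enzymes, computed alike, averaged -0.479 ± 0.149 in MCD, and the part of hepatocyte content in it was not tested.

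**Figure D2:**
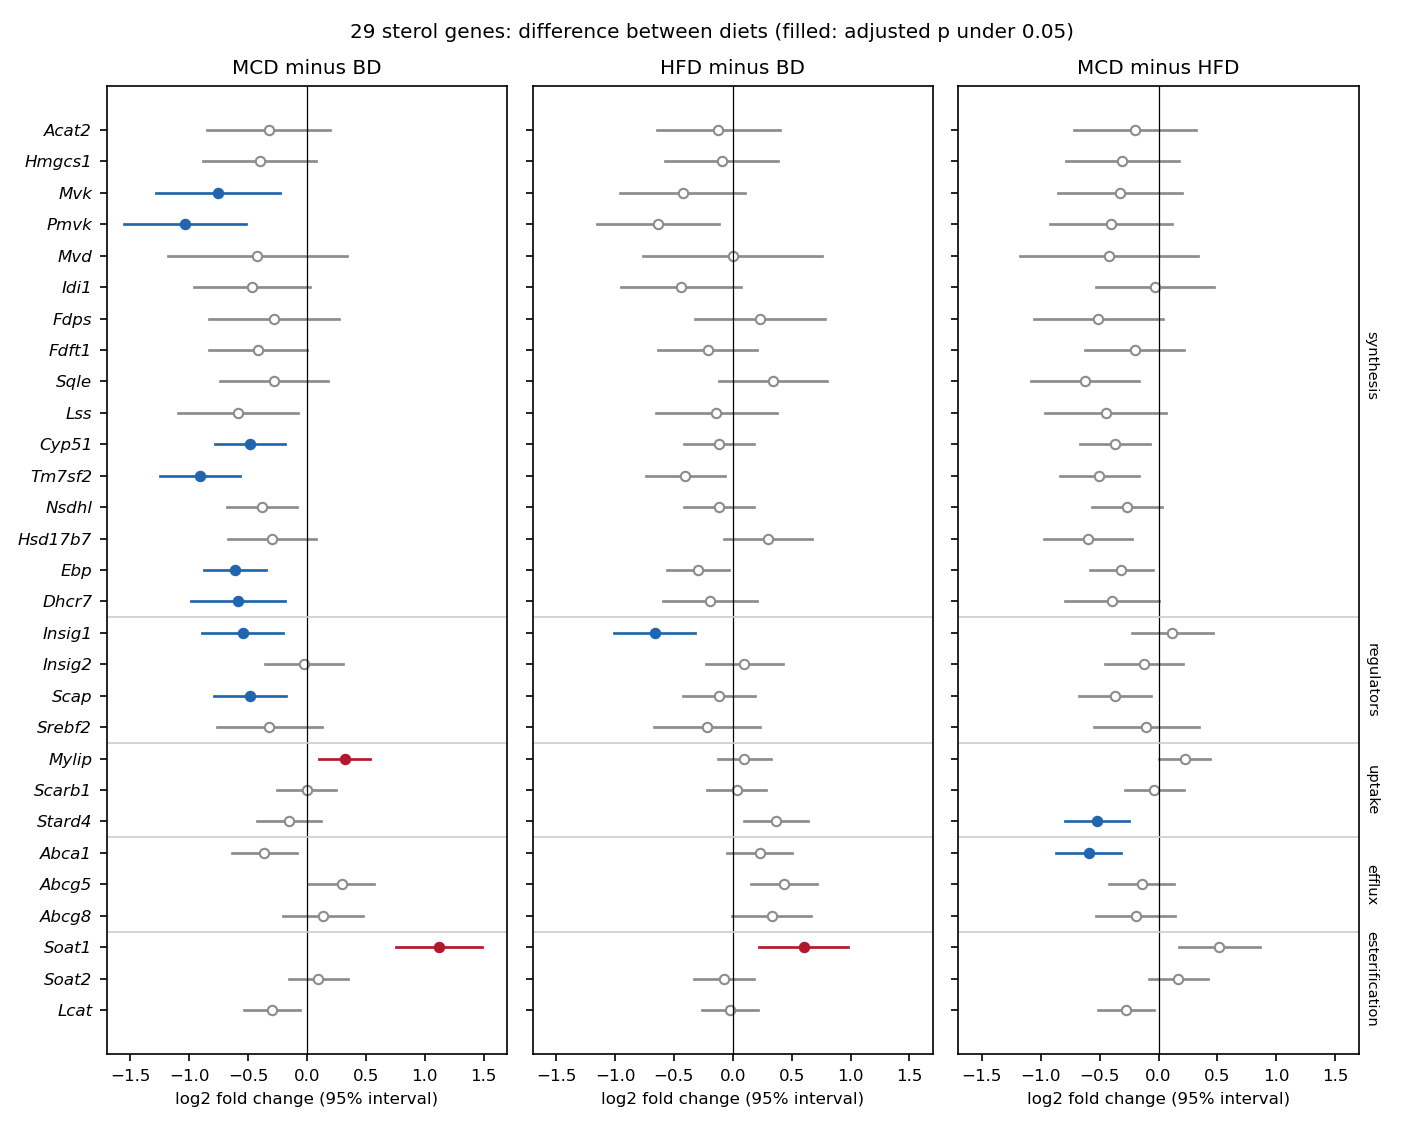
Log2 fold change of the 29 members (rows, by role) for MCD minus BD, HFD minus BD and MCD minus HFD, with 95% intervals; filled points have an adjusted p under 0.05, and blue or red marks lower or higher. All 16 synthesis enzymes lie left of 0 for MCD minus BD and for MCD minus HFD, while 3 of them lie right of 0 for HFD minus BD.

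In HFD livers against BD livers 1 member fell, the regulator Insig1, and 1 rose, the storage enzyme Soat1. The 2 calls among 29 members are a share near that of all genes tested, 6.92% (3.65% higher and 3.27% lower). They do not set the members apart from other genes. None of the 16 synthesis enzymes was called by edgeR, DESeq2 or limma-voom, and 3 had an unadjusted p under 0.05 by each tool, all lower, as 9.42% of all genes tested were. Their median log2 fold change was -0.13, against -0.0080 over all genes, and 13 of the 16 were below 0. Log2 fold changes of the 3 with an unadjusted p under 0.05 were those of Pmvk (-0.64, 95% interval -1.15 to -0.12, adjusted p = 0.147), Tm7sf2 (-0.40, 95% interval -0.74 to -0.070, adjusted p = 0.152) and Ebp (-0.30, 95% interval -0.56 to -0.033, adjusted p = 0.185). The 3 above 0 were Sqle at 0.34 (95% interval -0.12 to 0.80, adjusted p = 0.422), Hsd17b7 at 0.30 (95% interval -0.074 to 0.67, adjusted p = 0.382) and Fdps at 0.23 (95% interval -0.32 to 0.78, adjusted p = 0.688). These comparisons share their BD libraries with those of MCD against BD. The number of members called, 2, moved by over 1.5 times without MCD replicate 1 or 4 (1 and 1), without HFD replicate 1, 2, 4 or 5 (1, 1, 1 and 0), without BD replicate 1, 2, 3 or 4 (1, 0, 1 and 0), by limma-voom (1), without a filter on low counts (1), with only both diets compared in the fit (1) and without HFD replicate 2 and MCD replicate 3 together (1). Without TMM factors, higher genes made up 66.4% of all calls in this pair of diets, against 52.7% with them, and Insig1 was called lower and Soat1 and Abcg5 higher.

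Insig1 fell in HFD against BD (log2 fold change of -0.66 with SE 0.16, adjusted p = 0.0193), with only HFD replicate 1 reaching into the BD range. The call ended without HFD replicate 2 or 5 (adjusted p = 0.0614 and 0.0503), without BD replicate 2 or 4 (0.0529 and 0.0594) and without HFD replicate 2 and MCD replicate 3 together (0.0613). Soat1 rose 1.52-fold in HFD (log2 fold change of 0.60 with SE 0.18, adjusted p = 0.0492), without overlap with BD, which 7.05% of all genes tested shared in this pair. The Soat1 call ended without MCD replicate 1 or 4 (adjusted p = 0.0602 and 0.0592), without HFD replicate 1, 2, 3, 4 or 5 (0.0726, 0.110, 0.0672, 0.0590 and 0.0659), without BD replicate 1, 2, 3 or 4 (0.0664, 0.0737, 0.114 and 0.110), by limma-voom (0.0793), without a filter on low counts (0.0637), with only both diets compared in the fit (0.0754) and without HFD replicate 2 and MCD replicate 3 together (0.128). HFD replicate 2 held the highest Soat1 value of its diet and the highest macrophage marker score, 1.37 on the log2 scale relative to the BD mean, against 0.335 to 0.722 in the other HFD libraries.

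All 6 genes of uptake and efflux had a log2 fold change above 0 in HFD against BD (48.8% of all genes tested did), with a median of 0.28, but none was called by edgeR. With limma-voom none was called either, and with DESeq2 1, Abcg5. An unadjusted p under 0.05 was reached by 2 genes in edgeR, both higher, against 10.8% of all genes tested in that direction. Abcg5 lay at 86.3, 111, 60.1, 99.7 and 87.8 CPM in HFD replicates 1 to 5 and at 68.1, 68.3, 72.8, 57.1 and 64.8 CPM in BD replicates 1 to 5. HFD replicate 3 lay inside the BD range, and the other HFD libraries were above all BD libraries. The log2 fold change of Abcg5 was 0.43 (95% interval 0.15 to 0.71, adjusted p = 0.0570), and it was called without MCD replicate 2 (adjusted p = 0.0487), without HFD replicate 3 (0.00729), without TMM factors (0.0390), by DESeq2 (0.0296) and with non-unique alignments in the model (0.0445). Stard4 had a log2 fold change of 0.37 (95% interval 0.093 to 0.64, adjusted p = 0.106) and was called without HFD replicate 2 (adjusted p = 0.0485) and without HFD replicate 2 and MCD replicate 3 together (0.0330). Abca1 had a log2 fold change of 0.23 (95% interval -0.046 to 0.51, adjusted p = 0.359) and Abcg8 of 0.33 (95% interval -0.0097 to 0.67, adjusted p = 0.266), and neither was called under any alternative. Mylip (0.097, 95% interval -0.13 to 0.32, adjusted p = 0.682) and Scarb1 (0.032, 95% interval -0.22 to 0.28, adjusted p = 0.927) lay near 0 in HFD. Among the other regulators and esterification genes, Insig2, Scap, Srebf2, Soat2 and Lcat had adjusted p-values of 0.796, 0.724, 0.638, 0.808 and 0.946 in that order.

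The MCD and HFD diets have the same share of fat and differ in methionine, choline and folate. Of the members, a sterol carrier and an exporter fell in MCD against HFD. In MCD livers against HFD livers 2 of 29 members were called, Stard4 and Abca1, both lower, against 3.15% of all genes tested (2.22% higher and 0.927% lower). Stard4 was at 58.2, 51.8, 84.2, 70.7 and 79.2 CPM in MCD replicates 1 to 5. Stard4 levels were 104, 76.5, 107, 104 and 103 CPM in HFD replicates 1 to 5 and 79.1, 68.5, 89.3, 78.7 and 67.7 CPM in BD replicates 1 to 5. HFD replicate 2 lay below MCD replicates 3 and 5, while the other HFD libraries stood close together above every library of the other diets. Stard4 (chromosome 18, 33199355 to 33213862, minus strand) fell in MCD against HFD (log2 fold change of -0.52 with SE 0.13, adjusted p = 0.0371). The call for Stard4 ended without MCD replicate 1, 2 or 4 (adjusted p = 0.111, 0.0643 and 0.0786), without HFD replicate 1, 3, 4 or 5 (0.0873, 0.0988, 0.108 and 0.0881), without BD replicate 1 (0.0531), without TMM factors (0.0678), with only both diets compared in the fit (0.0683) and with non-unique alignments in the model (0.123). Abca1 fell as well (log2 fold change of -0.59 with SE 0.13, adjusted p = 0.0216), with HFD replicate 2 below MCD replicate 3 and the other HFD libraries above all MCD libraries. The call for Abca1 ended without MCD replicate 1 or 4 (adjusted p = 0.0679 and 0.0504), without HFD replicate 3, 4 or 5 (0.0670, 0.0794 and 0.0595), with only both diets compared in the fit (0.0508) and with non-unique alignments in the model (0.154). These fits compare MCD with the same HFD libraries that were set against BD.

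All 16 synthesis enzymes had a log2 fold change below 0 in MCD against HFD, with a median of -0.38, against -0.0032 over all genes, of which 49.3% were above 0. None of the 16 was called by edgeR or limma-voom and 1 by DESeq2, Hsd17b7, and 5 had an unadjusted p under 0.05 in edgeR, as 8.83% of all genes tested had in that direction. The log2 fold changes of the 5 were those of Sqle (-0.62, 95% interval -1.08 to -0.16, adjusted p = 0.122), Cyp51 (-0.37, 95% interval -0.67 to -0.073, adjusted p = 0.149), Tm7sf2 (-0.50, 95% interval -0.84 to -0.17, adjusted p = 0.0903), Hsd17b7 (-0.60, 95% interval -0.97 to -0.23, adjusted p = 0.0710) and Ebp (-0.32, 95% interval -0.58 to -0.051, adjusted p = 0.165). HFD replicate 2 was the lowest HFD library for 15 of the 16 enzymes. Without it, all genes called lower in MCD numbered 409, against 113 with it, and all calls numbered 1248, against 384. The calls gained among the enzymes came with this general gain, and 4 were lower in MCD: Sqle (adjusted p = 0.0190), Cyp51 (0.0279), Tm7sf2 (0.0223) and Hsd17b7 (0.0151). Scap (adjusted p = 0.0492), lower, and Soat1 (0.0391), higher, were called then as well. Without HFD replicate 2 and MCD replicate 3 together, 5 enzymes were lower, among 482 genes called lower in all, the fifth being Ebp (adjusted p = 0.0461). The number of members called, 2, moved by over 1.5 times without MCD replicate 1, 2 or 4 (0, 1 and 0), without HFD replicate 1, 2, 3, 4 or 5 (1, 8, 0, 0 and 0), without BD replicate 1 (1), without TMM factors (1), with only both diets compared in the fit (0), with non-unique alignments in the model (0) and without HFD replicate 2 and MCD replicate 3 together (9). Without TMM factors, higher genes made up 86.0% of all calls, against 70.6% with them, and Abca1 alone of the members was called, lower.

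Soat1 was higher in every MCD library than in every HFD library, and 4.32% of all genes tested likewise had no overlap in this pair, but its difference was not called (0.52, 95% interval 0.17 to 0.86, adjusted p = 0.0918). The log2 fold change was 0.22 (95% interval 0.0055 to 0.44, adjusted p = 0.238) for Mylip, -0.28 (95% interval -0.51 to -0.038, adjusted p = 0.180) for Lcat and -0.37 (95% interval -0.68 to -0.060, adjusted p = 0.164) for Scap. Insig1, lower on both 31% fat diets than in BD, had a log2 fold change of 0.12 (95% interval -0.23 to 0.46, adjusted p = 0.739) between them. Insig2, Srebf2, Scarb1, Abcg5, Abcg8 and Soat2 had adjusted p-values of 0.703, 0.832, 0.902, 0.588, 0.526 and 0.454 in that order.

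Synthesis was set against uptake and efflux in each library by a score, the mean over genes of log2 CPM minus the BD mean of the gene. All 6 uptake and efflux genes entered with the same sign, although MYLIP lowers lipoprotein receptors and Stard4 is an SREBP2 target. Their score is therefore a mean of RNA levels, and a higher value does not stand for more uptake or efflux. The score of the 16 synthesis enzymes was -0.421, -0.448, -0.298, -0.700 and -0.528 in MCD replicates 1 to 5, 0.260, -0.613, -0.0403, -0.179 and -0.0437 in HFD replicates 1 to 5 and -0.0125, -0.265, 0.0622, 0.629 and -0.414 in BD replicates 1 to 5. The score of the 6 uptake and efflux genes was -0.198, -0.219, 0.134, 0.122 and 0.287 in MCD, 0.185, 0.165, 0.1496, 0.396 and 0.284 in HFD and 0.0595, 0.0488, 0.0633, -0.147 and -0.0243 in BD, in the same order. For synthesis the MCD libraries were the most alike and lay below 0 throughout, HFD replicate 2 and BD replicate 5 lay within their range, and the BD libraries spread from below most HFD libraries to the highest value of all. For uptake and efflux every HFD library lay above every BD library, while the MCD libraries lay on both sides. The synthesis score averaged -0.479 ± 0.149 in MCD, -0.123 ± 0.317 in HFD and 0 ± 0.400 in BD (SD, n = 5 each). The score difference, synthesis minus uptake and efflux, averaged -0.504 ± 0.299 in MCD, -0.359 ± 0.332 in HFD and 0 ± 0.463 in BD. Single libraries moved these differences by over 1.5 times. Without BD replicate 4, the synthesis score of MCD minus BD was -0.318, against -0.479 with all libraries. That of HFD minus BD was -0.123 with all libraries and turned to 0.0362 without BD replicate 4 and to 0.00656 without HFD replicate 2. It was -0.211, -0.190 and -0.227 without HFD replicate 1, BD replicate 2 and BD replicate 5 in that order. Synthesis minus uptake and efflux was -0.310 in MCD minus BD and -0.165 in HFD minus BD without BD replicate 4. No p is given for these scores, since the genes were grouped with results of these data known.

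**Figure D3:**
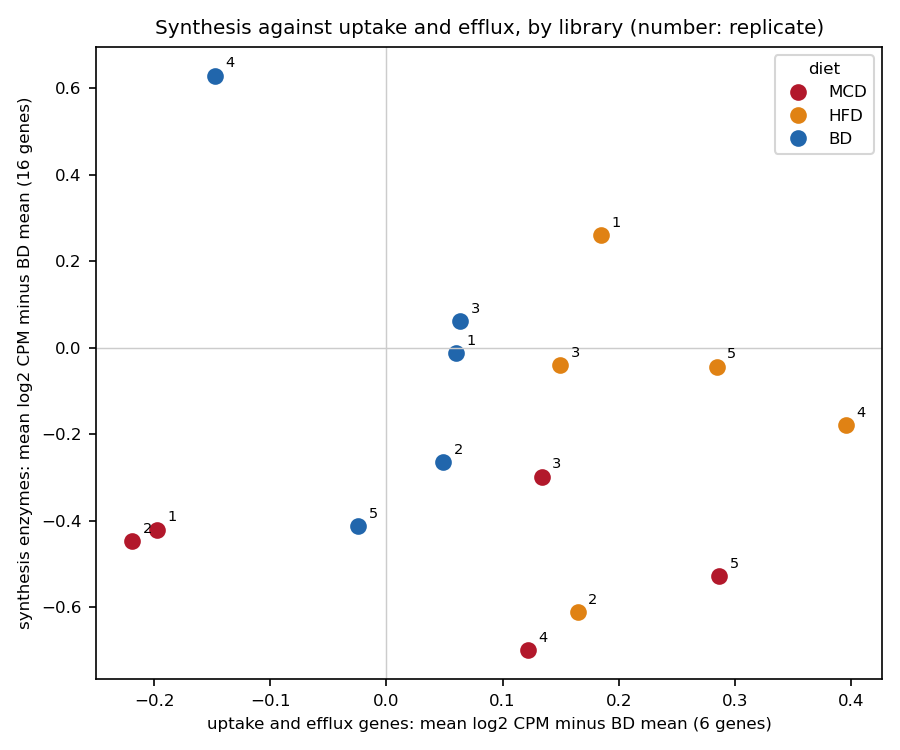
Score of the 16 synthesis enzymes (vertical axis) against the score of the 6 uptake and efflux genes (horizontal axis), both as mean log2 CPM minus the BD mean, for each of the 15 libraries, with replicate numbers beside the points. The 5 MCD libraries lie below 0 on the synthesis axis, the 5 HFD libraries lie right of every BD library, and HFD replicate 2 has the lowest HFD synthesis score.

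Single libraries were high or low for most of the enzymes. BD replicate 4 was the highest BD library for 15 of the 16 enzymes, and BD replicate 5 the lowest for 10. HFD replicate 1 was the highest HFD library for 11. MCD replicate 4 was the lowest MCD library for 10, and MCD replicate 3 the highest for 7. Clock genes, whose levels change with the hour of the day, differed between diets. Of 12, 11 were called in MCD against BD (7 higher, 4 lower) and 10 in HFD against BD (7 higher, 3 lower). Of all genes tested, 21.4% and 6.92% were called in these pairs in that order. In MCD against HFD none of the 12 was called by edgeR, DESeq2 or limma-voom. By edgeR 1 was lower at an unadjusted p under 0.05, against 8.83% of all genes tested. The parts of the hour, the diet and a batch in the clock genes, and of the hour in the sterol genes, were not tested.

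**Figure D4:**
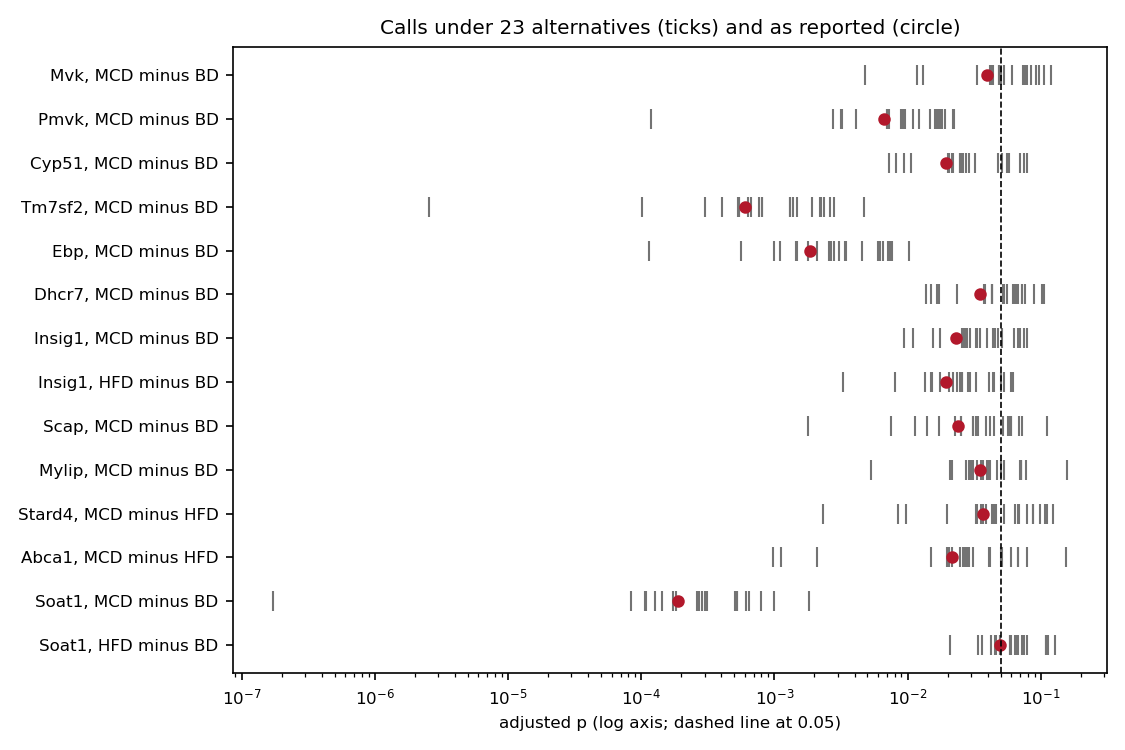
Adjusted p (horizontal log axis) of the 14 calls among the members, as reported (circles) and under 23 alternative settings (ticks), with a dashed line at 0.05. For Pmvk, Tm7sf2, Ebp and Soat1 in MCD minus BD all ticks lie left of the line, and for the other 10 calls some lie right of it.

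Of 15 other genes of sterol synthesis and its control, 1 rose and 3 fell in MCD against BD, where 12.8% of all genes tested were called higher and 8.64% lower. The gene that rose was Acat1, the mitochondrial relative of Acat2, with 651 CPM in MCD against 501 CPM in BD (log2 fold change of 0.38 with SE 0.095, adjusted p = 0.00753), also under all 23 alternatives. Acss2, which makes acetyl-CoA from acetate and is an SREBP target, fell, with 265 CPM in MCD against 581 CPM in BD (log2 fold change of -1.13 with SE 0.30, adjusted p = 0.0156), a call that ended with non-unique alignments in the model (adjusted p = 0.0528). Msmo1, a sterol demethylase listed as Sc4mol, fell, with 232 CPM in MCD against 347 CPM in BD (log2 fold change of -0.58 with SE 0.18, adjusted p = 0.0279), and this call ended without MCD replicate 1, 3, 4 or 5 (adjusted p = 0.0585, 0.0652, 0.0762 and 0.0512), without BD replicate 1 or 4 (0.0688 and 0.0856), without TMM factors (0.0787) and with non-unique alignments in the model (0.0708). In HFD against BD none of the 15 was called by edgeR, and 1 was called by DESeq2 and 1 by limma-voom. At an unadjusted p under 0.05 in edgeR 2 were higher and 1 lower, against 10.8% and 9.42% of all genes tested in that order. In MCD against HFD none was called by edgeR or limma-voom and 1 by DESeq2. At an unadjusted p under 0.05 in edgeR 1 was higher and 2 were lower, against 11.1% and 8.83% of all genes tested in that order.

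Of 22 other genes of sterol transport and LXR action, 3 rose and none fell in MCD against BD, where 12.8% of all genes tested were called higher, a share near that of the list. In HFD against BD 2 rose, where 3.65% of all genes tested were called higher. Nceh1, which releases cholesterol from stored esters and so works against Soat1, had 68.1 CPM in MCD against 35.2 CPM in BD (log2 fold change of 0.95 with SE 0.13, adjusted p = 5.81e-05) and 71.8 CPM in HFD (log2 fold change of 1.02 with SE 0.13, adjusted p = 4.20e-05). Abcb4, the exporter of phosphatidylcholine to bile, had 436 CPM in MCD against 283 CPM in BD (log2 fold change of 0.62 with SE 0.12, adjusted p = 0.00149) and 420.1 CPM in HFD (log2 fold change of 0.57 with SE 0.12, adjusted p = 0.00787). Abcg1, a cholesterol exporter and LXR target, had 13.4 CPM in MCD against 8.41 CPM in BD (log2 fold change of 0.67 with SE 0.14, adjusted p = 0.00192). These 5 calls held under all 23 alternatives. In MCD against HFD none of the 22 was called by edgeR, DESeq2 or limma-voom. At an unadjusted p under 0.05 in edgeR 2 were higher and 2 lower, against 11.1% and 8.83% of all genes tested in that order.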

How the data were processed

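Count tables for 15 liver libraries (5 each of MCD, HFD and BD) were analysed. The authors deposited counts, whole numbers of reads for each gene symbol. TopHat2 2.0.13, Trimmomatic, DESeq2 and HTSeq were named with the builds GRCm38 and mm10 in the submitters' processing notes, and per the labels the library kit was stranded. The annotation, strand setting and counting mode of the counts were not given in the sources used here. The closing entries for reads given to no gene were left out everywhere. Reads outside genes were 12.7% to 17.0% of reads with a unique position and ambiguous ones 0.567% to 0.841%, and non-unique alignments numbered 1.15 to 2.80 per gene count. By diet this rate was 1.19 to 1.66 in MCD and 1.49 to 2.80 in BD. It was 1.15 in HFD replicate 2 and 1.73 to 2.53 in the other HFD libraries. The rate thus went partly with diet, and the model that holds both cannot fully tell them apart. A level of 3 counts corresponded to 0.118 to 0.851 CPM. The depth of 3704642 to 23131089 gene counts limits the precision of the least expressed members, Soat1 and Idi1.

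The members and lists were chosen with earlier results of these data known. In R 4.3.3, edgeR 4.0.16 scaled the counts with TMM factors and kept genes by filterByExpr (at least 10 counts, at least 15 in total). A robust quasi-likelihood fit over the 15 libraries then gave two-sided F tests of the 3 pairs of diets, with Benjamini-Hochberg adjustment over 12193 genes and a threshold of 0.05. The SE is the absolute log2 fold change over the root of F, and intervals are 95%. The common biological coefficient of variation was 0.176. Scores used a prior count of 2. Every member is named, with the values of each library for a member called in at least 1 pair of diets, and of each other list at most the 3 genes with the smallest p in a pair. In 30 pairs of libraries from 1 diet, chi-square was 7.33 to 65.0 per degree of freedom, above sampling noise, so no library was taken for a repeat. Alternatives were no TMM, the size factors of DESeq2, DESeq2 1.42.0, limma-voom 3.58.1, no filter, only the diets compared, the rate of non-unique alignments in the model, 2 libraries left out together and each library left out in turn. The procedure was also run on simulated counts, drawn with the spread estimated from these data. No effect shared by the genes of a library or by a batch was simulated, so that run does not bear on such effects. Promoter sequences are from RefSeq, and 3 genes of the other lists were matched by an older symbol. Figures were drawn with matplotlib 3.10.9 in Python 3.11.15.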

Additional observations from a re-analysis of the deposited data

Results flagged for a closer look

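In 2 of 87 groups of 5 libraries (29 members in 3 diets) a single library lay farther from the others than a critical gap of 0.71 of the group's range. Both were low values of HFD replicate 2: Ebp at 224 CPM, against 281 to 303 CPM in the other 4 HFD libraries, and Stard4 at 76.5 CPM, against 103 to 107 CPM in the other 4 HFD libraries. Chance flags about 1 in 20 such groups. The same library was the lowest of its diet for 15 of the 16 synthesis enzymes and lay among the MCD libraries on the first principal component, and its part in the flagged values was not tested. In MCD against HFD, Ebp was not called with or without it (adjusted p = 0.165 with it and 0.0728 without it), and Stard4 was called both ways (adjusted p = 0.0371 and 0.00846).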

How the results depend on the processing

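Of the 14 calls among the members, 4 held under all 23 alternatives (Pmvk, Tm7sf2, Ebp and Soat1, in MCD against BD), and 10 ended under at least 1. Counted over calls and alternatives, 230 stood and 92 ended, and no called difference changed sign. Where no call was made, 33 became calls. With 1 library left out in turn, 4 to 11 members were called in MCD against BD, 0 to 3 in HFD against BD and 0 to 8 in MCD against HFD, and 3 to 7 synthesis enzymes fell in MCD against BD and 0 to 4 in MCD against HFD. All genes called then numbered 1938 to 2805 in MCD against BD, 569 to 974 in HFD against BD and 74 to 1248 in MCD against HFD. Those called lower numbered 712 to 1238 in MCD against BD and 18 to 409 in MCD against HFD. With all libraries 12193 genes were tested. The number of members called was 6 without TMM factors in MCD against BD, where the enzymes that fell numbered 3 without TMM factors. In HFD against BD it was 1 by limma-voom, 1 without a filter on low counts, 1 with only both diets compared in the fit and 1 without HFD replicate 2 and MCD replicate 3 together. In MCD against HFD it was 1 without TMM factors, 0 with only both diets compared in the fit, 0 with non-unique alignments in the model and 9 without HFD replicate 2 and MCD replicate 3 together, and the enzymes that fell numbered 1 by DESeq2 and 5 without HFD replicate 2 and MCD replicate 3 together. All genes called in MCD against HFD numbered 701 by DESeq2, 224 with only both diets compared in the fit, 82 with non-unique alignments in the model and 1365 without HFD replicate 2 and MCD replicate 3 together, against 384 as reported, and 74 to 1248 with 1 library left out: 113 without MCD replicate 1, 142 without MCD replicate 4, 220 without MCD replicate 5, 181 without HFD replicate 1, 1248 without HFD replicate 2, 156 without HFD replicate 3, 74 without HFD replicate 4 and 155 without HFD replicate 5. The cause was not tested. The sign of the log2 fold change turned 59 times, in 17 of 87 members by pairs, never with a call. In MCD against BD, Insig2 was -0.026 as reported and 0.11 without TMM factors, 0.12 with non-unique alignments in the model and -0.11 to 0.066 with 1 library left out. Scarb1 was -0.0046 as reported and 0.14 without TMM factors, 0.0044 with the size factors of DESeq2, 0.0043 by DESeq2, 0.015 without a filter on low counts, 0.021 with only both diets compared in the fit and -0.11 to 0.081 with 1 library left out. Soat2 was 0.096 as reported and -0.065 with non-unique alignments in the model and -0.015 to 0.15 with 1 library left out. In HFD against BD, Acat2 was -0.12 as reported and -0.24 to 0.10 with 1 library left out. Hmgcs1 was -0.096 as reported and -0.23 to 0.16 with 1 library left out. Mvd was -0.0022 as reported and 0.061 without TMM factors, 0.0046 with the size factors of DESeq2, 0.12 by limma-voom, 0.0050 without a filter on low counts, 0.0029 with only both diets compared in the fit, 0.068 with non-unique alignments in the model, 0.11 without HFD replicate 2 and MCD replicate 3 together and -0.30 to 0.37 with 1 library left out. Fdft1 was -0.21 as reported and -0.32 to 0.026 with 1 library left out. Lss was -0.14 as reported and 0.0096 without HFD replicate 2 and MCD replicate 3 together and -0.25 to 0.11 with 1 library left out. Nsdhl was -0.12 as reported and -0.21 to 0.040 with 1 library left out. Dhcr7 was -0.19 as reported and -0.29 to 0.0092 with 1 library left out. Scarb1 was 0.032 as reported and -0.016 to 0.076 with 1 library left out. Soat2 was -0.073 as reported and -0.18 to 0.0079 with 1 library left out. Lcat was -0.022 as reported and 0.041 without TMM factors and -0.088 to 0.032 with 1 library left out. In MCD against HFD, Idi1 was -0.029 as reported and 0.047 without TMM factors, 0.058 by limma-voom and -0.14 to 0.15 with 1 library left out. Insig2 was -0.12 as reported and 0.023 with non-unique alignments in the model. Srebf2 was -0.10 as reported and -0.28 to 0.035 with 1 library left out. Scarb1 was -0.036 as reported and 0.043 without TMM factors and -0.15 to 0.046 with 1 library left out. The synthesis score alone, an alternative chosen after seeing the data, was -0.123 in HFD minus BD as reported, 0.00118 without HFD replicate 2 and MCD replicate 3 together, -0.0603 without TMM factors and -0.227 to 0.0362 with 1 library left out. With 1 library left out it was -0.584 to -0.318 in MCD minus BD and -0.464 to -0.247 in MCD minus HFD. Synthesis minus uptake and efflux was then -0.601 to -0.310 in MCD minus BD, -0.467 to -0.165 in HFD minus BD and -0.250 to -0.0366 in MCD minus HFD. No paired analysis was possible because the labels give no replicate numbers, and those used here follow the order of the samples. Members near the level of Soat1 and Idi1, a few CPM, are limited by depth in the shallowest library.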
